A study of Arabidopsis thaliana with 8 samples.

Results

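Cytochrome P450 genes of Arabidopsis thaliana were examined for binding of ARR12, a transcription factor of the B-type response regulators, through which cytokinin signalling reaches its target genes. The genes were nuclear protein-coding genes whose annotation symbol is CYP followed by a family number, a subfamily letter and a gene number. Of 7 loci set aside beforehand, which act in cytokinin synthesis, in root triterpenoid gene clusters or in brassinosteroid inactivation, 6 carry such a symbol. The rule gave 213 genes in 39 families, of 27444 nuclear protein-coding genes in all. A further 15 P450 genes stand in the annotation under another name, such as DWF4, C4H and AOS, and are described apart.

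P450 enzymes are heme-dependent monooxygenases, most of which sit in the membrane of the endoplasmic reticulum and take electrons from NADPH-P450 reductases. In plants they form large families that build and inactivate hormones, hydroxylate the fatty acids of cutin and suberin, and make lignin precursors, glucosinolates, phytoalexins and triterpenoids. In roots they are known from suberin deposition, from the inactivation of abscisic acid and jasmonate, and from small clusters of triterpenoid genes.

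Binding was mapped by ChIP-seq with an anti-GFP antibody in root apical meristems at 3 days post germination. Seeds were stratified for 5 days and seedlings grew at 22 °C in long days. Both groups had the ecotype Col-0: 2 libraries came from ARR12-GFP plants and 2 from a control genotype, which the series' design text names as Col-0 and the sample titles call GFP. The promoter of the ARR12-GFP fusion, and whether native ARR12 was still present, could not be read from the labels. The 4 input libraries carry no summit list of their own and enter no comparison.

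Each file lists the summits of the peaks called in 1 library, each with the authors' own score on a −log10 scale. The lists held between 5492 and 8137 nuclear summits for ARR12-GFP and between 199 and 251 for the control. Read depth is unknown from these lists, so the number of summits cannot be told apart from depth. A reproducible site is a group of summits joined within 200 bp that holds a summit of each ARR12-GFP library and has no control summit within 200 bp. A gene is counted when a summit or site lies inside it or within 1500 bp of either end. Strand and exons were not available, so a distance does not say whether a site lies upstream or downstream of a gene. Positions are in TAIR10 coordinates.

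In ARR12-GFP plants, 27 of the 213 P450 genes (12.7%, exact binomial 95% interval 8.52 to 17.9) had a reproducible site, against 14.0% of all genes. The P450 genes as a whole therefore lay near the background. By score percentile averaged over both ARR12-GFP libraries, the 3 highest sites among them were in CYP86A7, CYP86A8 and CYP86A2. These are genes of fatty acid ω-hydroxylases of the cuticle. CYP715A1 and CYP86A4 followed, with mean percentiles of 90.12 and 90.08. In replicate 1 a summit lay near 71 P450 genes (33.3%, interval 27.0 to 40.1), against 28.1% of all genes, and in replicate 2 near 39 (18.3%, interval 13.4 to 24.2), against 19.6%. In control replicate 1 a summit lay near 1 P450 gene (0.469%), against 0.503% of all genes. In control replicate 2 the count was 0, where 0.590% of all genes had a summit. A count of 0 allows a share of up to 1.41% by the limit of 3 counts in 213, and the exact 95% interval drawn in the plot of shares by library reaches 1.72%. These intervals and limits cover counting error only.

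**Figure D1:**
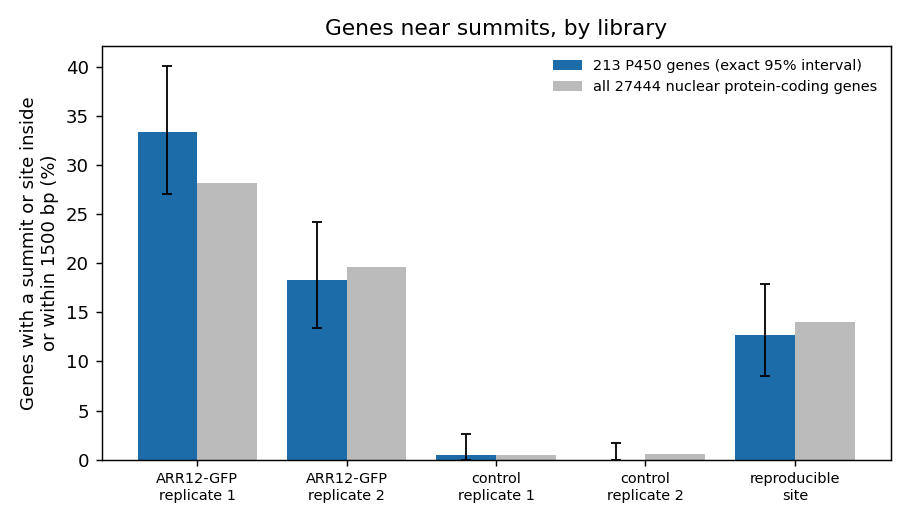
Share of genes (%, vertical axis) with a summit inside or within 1500 bp in each of the 4 anti-GFP libraries, and with a reproducible site, for the 213 P450 genes (blue, with exact 95% intervals) and for all 27444 nuclear protein-coding genes (grey). The P450 share is 33.3% in ARR12-GFP replicate 1, 18.3% in replicate 2 and 12.7% for reproducible sites, and each interval spans the share of all genes.

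The ARR12-GFP libraries thus had 55 ± 22.6 (SD, n = 2) P450 genes near a summit and the control libraries 0.5 ± 0.707 (SD, n = 2), without overlap between the groups. The difference of 54.5 genes had p = 0.333 in a two-sided exact permutation test, and with 6 possible labellings of the libraries no smaller value can be reached. The all-gene shares given above differed between the groups in the same way.

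Of the 213 genes, 33 lay near a summit of both ARR12-GFP libraries (15.5%, against 16.9% of all genes), and 27 of these had a reproducible site. A summit of replicate 1 alone lay near 38 genes and one of replicate 2 alone near 6, and 136 genes had neither. Among P450 genes near a replicate 1 summit, 38.03% had a reproducible site, against 49.7% of all genes near such a summit. For replicate 2 the shares were 69.2% and 71.3%. Of the 82 replicate 1 summits near P450 genes, 40 scored at or above the median of their list and 25 of those had a replicate 2 summit within 200 bp, while 7 of the 42 lower-scoring summits had one. In the whole replicate 1 list the corresponding shares were 65.2% and 22.6%, against 62.5% and 16.7% at P450 genes. Of the 54 replicate 2 summits near P450 genes, 33 scored at or above the median of their list. A replicate 1 summit matched 24 of these 33 (72.7%) and 7 of the 21 lower-scoring ones (33.3%). In the whole replicate 2 list these shares were 77.9% and 52.4%. The summits near P450 genes had a median score percentile of 47.7 in replicate 1 and 65.3 in replicate 2. Over all nuclear summits the medians were 50.2 and 50.0.

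The P450 genes had a median annotated length of 2052 bp, close to the 2078 bp of all genes. Among genes of 1867 to 2453 bp, the range between the quartiles of the P450 genes, 15.7% of 5093 genes had a reproducible site, and 13.9% of the 108 P450 genes of that length did. P450 genes often stand in tandem, with 83 of the 213 within 1500 bp of a further P450 gene of the set. Of these 83 genes 8 had a site (9.64%), and of the 130 others 19 had one (14.6%), against 14.0% of all genes. Neighbouring P450 genes can share a site, so these are not counts of separate observations. The difference between the shares was not tested.

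The families differ in size, and most are small. Of the 39 families, 15 held a gene with a site. The 5 families with at least 2 such genes held 17 of the 27, and they include CYP71, the largest family. CYP81 had 5 of 16 genes (31.25%), CYP705 4 of 22 (18.2%) and CYP86 4 of 10 (40%). CYP71 had 2 of 47 (4.26%) and CYP94 2 of 6 (33.3%). The exact intervals of these shares were wide, from 12.2 to 73.8% for CYP86 and from 0.520 to 14.5% for CYP71. Each of the 5 intervals spanned the 14.0% of all genes. The other 10 families had 1 gene with a site each, namely CYP79C1, CYP702A3, CYP82F1, CYP707A3, CYP708A3, CYP714A1, CYP83B1, CYP715A1, CYP84A4 and CYP87A2. By clan, the grouping of families by descent, sites lay near 15 of 139 genes of the CYP71 clan (10.8%), 6 of 31 of the CYP86 clan (19.4%), 4 of 19 of the CYP85 clan (21.1%) and 2 of 16 of the CYP72 clan (12.5%). Their intervals overlapped one another and spanned the 14.0% of all genes.

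**Figure D2:**
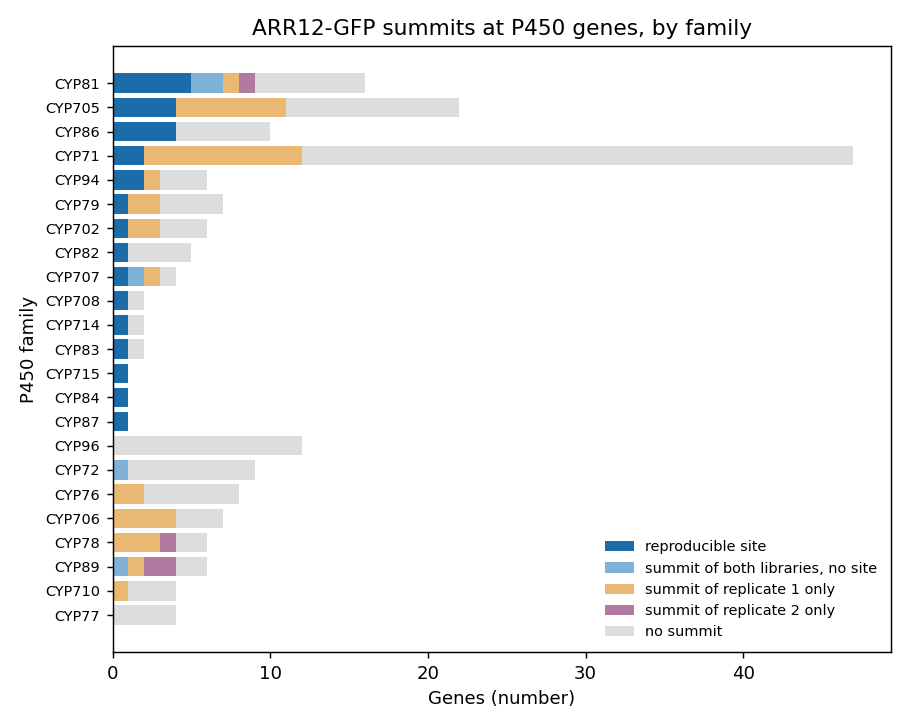
Number of genes (horizontal axis) per P450 family for the families with at least 4 genes or at least 1 site, stacked by what lay inside the gene or within 1500 bp. CYP81 has 5 of 16 genes with a reproducible site and CYP86 has 4 of 10, while 10 of the 47 CYP71 genes had a summit of ARR12-GFP replicate 1 alone.

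The CYP86A subfamily encodes fatty acid ω-hydroxylases, whose products are monomers of the cuticle and, for CYP86A1, of root suberin. Of its 5 genes 4 had a reproducible site (80%, exact interval 28.4 to 99.5, against 14.0% of all genes). In each of the 4 the site lay inside the gene. The subfamily was picked out after its sites were seen to rank high, so its share is a description. The interval also takes these related genes as separate draws. Genes with a site inside them made up 11 of the 213 P450 genes (5.16%) and 3.52% of all genes. The position of a site is midway between the highest-scoring summits of the libraries, so 1 summit can lie outside the gene. CYP86A7 (AT1G63710) held a site at position 23633264 of chromosome 1, where the summits scored 36.8 in replicate 1 and 38.8 in replicate 2. In CYP86A2 (AT4G00360) the summits of the libraries lay 1 bp apart, at 161806 of chromosome 4, and scored 32.4 and 22.6. In CYP86A4 (AT1G01600) the site lay at 219986 of chromosome 1, with scores of 26.8 and 22.5.

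These summits stood well away from the gene ends. Measured from the end with the lower coordinate, the site lay 1086 bp into the 1896 bp of CYP86A7, 1163 bp into the 2381 bp of CYP86A2 and 1152 bp into the 2453 bp of CYP86A4. From the other end the sites lay 809, 1217 and 1300 bp in. Which end is the start of each gene is not known here. No other summit of the 4 libraries lay inside these 3 genes or within 1500 bp of them. The nearest other protein-coding gene lay 1091 to 2481 bp from these sites. At CYP86A4 it was GPAT4, an acyltransferase of cutin synthesis, at 1656 bp.

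CYP86A8 (AT2G45970, also known as LACERATA) held 2 groups of joined summits. The reproducible site, at 18912584 of chromosome 2, lay 489 bp inside the gene and scored 35.8 and 22.3. A stronger pair of summits, at 18913567, lay inside the gene, 1472 bp from the end with the lower coordinate and 1172 bp from the other. Its summits scored 41.0 and 51.7, at percentiles 94.6 and 99.5 of the lists. This pair was not counted as a reproducible site, because control replicate 1 had a summit 79 bp away. That control summit scored 2.15, at percentile 1.17 of its list, and was the only control summit near any of the 213 P450 genes. It also lay within 1000 bp of the counted site of CYP86A8. With sites removed within 1000 bp of control summits, 26 P450 genes had a site. CYP86A1 (AT5G58860), the root suberin enzyme of the subfamily, had no summit nearby: the nearest ones lay 7363 bp away in replicate 1 and 17002 bp away in replicate 2, and control summits lay at 7364 and 7369 bp. CYP86B1 (AT5G23190), which acts on longer suberin chains, had its nearest summits at 4113 and 16571 bp. Of the 11 genes listed for suberin, cutin, wax and sporopollenin, these 4 CYP86A genes were the ones with a site. Of all genes 14.0% had one. CYP77A4, CYP77A6, CYP96A15 and CYP704B1 had no summit within 1500 bp, and CYP703A2 (AT1G01280), a pollen wall hydroxylase, had a replicate 2 summit at 421 bp and none of replicate 1.

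**Figure D3:**
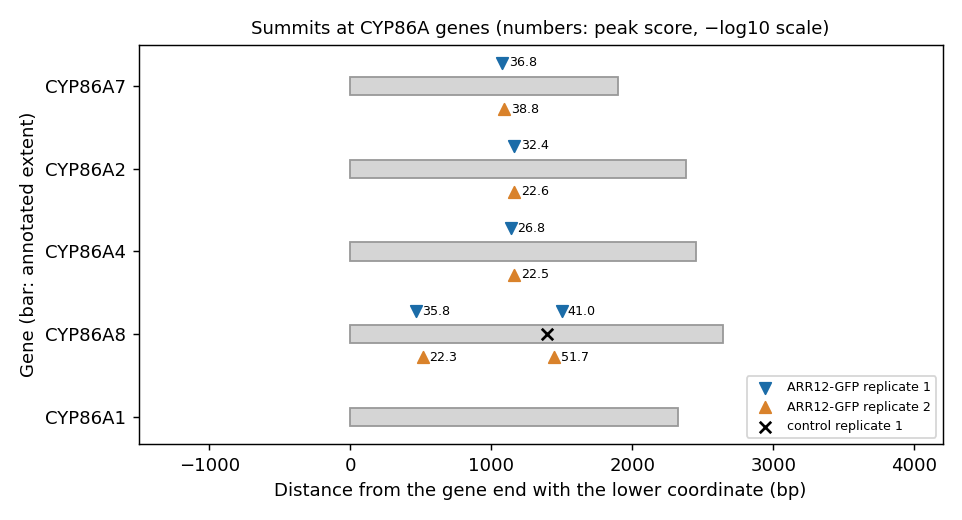
Summits at the 5 CYP86A genes, drawn by distance (bp, horizontal axis) from the gene end with the lower coordinate, with the annotated extent of each gene as a grey bar and peak scores beside the ARR12-GFP summits. In CYP86A7, CYP86A2 and CYP86A4 the summits of both ARR12-GFP libraries fall 1079 to 1164 bp from that end, which need not be the start of the gene. CYP86A8 has 2 pairs and 1 control summit, and CYP86A1 has none.

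Sites that far inside a gene were a minority of all sites within genes. Of the 1041 pairs of a gene and a reproducible site inside it, 293 (28.1%) had the site more than 400 bp from either end, against 7 of the 11 pairs at P450 genes (63.6%). The 7 were in the 4 CYP86A genes, CYP715A1, CYP714A1 and CYP84A4. Among the 293 deep sites, 34 had a mean score percentile of at least 90, and 5 of these 34 were in P450 genes, namely the 4 CYP86A genes and CYP715A1. The limits of 400 bp and percentile 90 were chosen after the values were seen, and these counts are a description.

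The 30 distinct sites near P450 genes formed 33 pairs of a gene and a site, since 3 sites lay near a pair of P450 genes. Their median score percentile, averaged over both libraries, was 73.2, against 62.7 for all 3503 reproducible sites, and it ran from 22.4 to 95.7. Of the 30 sites 12 (40%) lay above percentile 80, against 27.0% of all sites. The CYP86A7 site ranked 183 among all 3503 sites, and the sites of CYP86A8, CYP86A2 and CYP86A4 ranked 325, 373 and 466. The summits of the 2 libraries lay a median of 51.5 bp apart at these sites and 51 bp apart at all sites. Where the site lay outside the P450 gene, the median distance to it was 484.5 bp, against 599 bp for all pairs of a gene and an outside site.

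**Figure D4:**
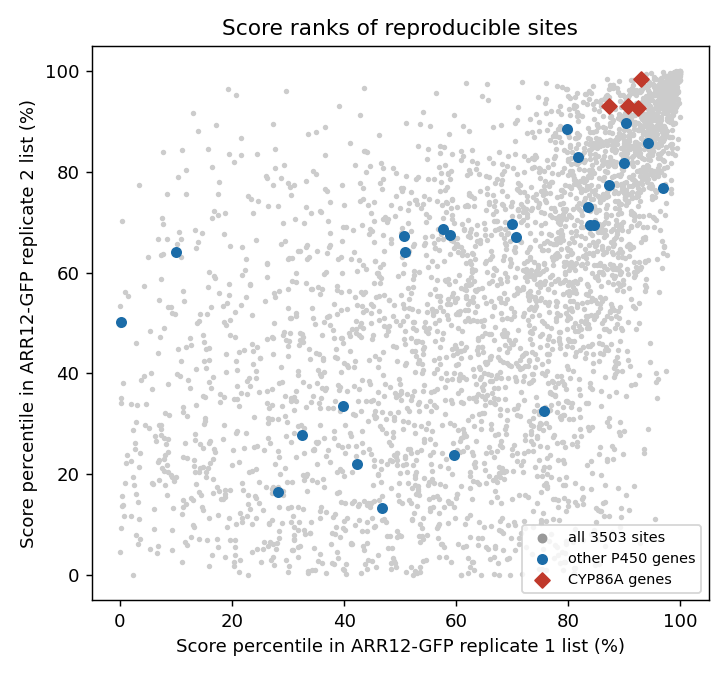
Score percentile of each reproducible site within the summit list of ARR12-GFP replicate 1 (horizontal axis, %) and replicate 2 (vertical axis, %), for all 3503 sites (grey), the 26 sites at P450 genes other than CYP86A (blue) and the 4 at CYP86A genes (red diamonds). The CYP86A sites sit together above percentile 87 in both libraries, while other P450 sites range from 0.202 to 97.0 in replicate 1.

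Among genes of hormone metabolism, sites lay at 1 of 3 genes of jasmonate inactivation, 1 of 4 of abscisic acid inactivation and 1 of 3 of gibberellin metabolism. Against the 14.0% of all genes, counts this small are not told apart from the background. CYP94B1 (AT5G63450), which hydroxylates the active jasmonate jasmonoyl-isoleucine, had 2 sites on opposite sides of the gene. The nearer, 69 bp from the gene at 25408752 of chromosome 5, scored 20.4 and 18.0, and the farther, at 1358 bp, scored 32.0 and 18.9 but was nearer to another gene, AT5G63460. Of the 3 genes of jasmonate inactivation, CYP94B3 (AT3G48520) had 2 replicate 1 summits, the higher of score 7.86 at 707 bp and the nearer at 60 bp, and none of replicate 2. CYP94C1 (AT2G27690) had no summit within 1500 bp, with the nearest at 1762 and 2015 bp. CYP94B2 (AT3G01900) had a site at 517 bp, at score percentiles 58.8 and 67.5, and SOX lay only 56 bp from that site.

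The CYP707A genes encode abscisic acid 8′-hydroxylases, the main enzymes of abscisic acid breakdown, and 1 of 4 had a site. CYP707A3 (AT5G45340) had it at 985 bp, at 18372006 of chromosome 5, with scores of 26.9 and 12.6. CYP707A1 (AT4G19230) held a summit of each library, scoring 5.48 and 3.11, but these lay 1966 bp apart. CYP707A2 (AT2G29090) had 2 replicate 1 summits, the higher of score 14.5 at 517 bp and the other inside the gene, and none of replicate 2, and CYP707A4 (AT3G19270) had none within 8802 bp.

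In gibberellin metabolism, CYP714A1 (AT5G24910), an enzyme of gibberellin inactivation, held a site 821 bp inside the gene, at 8569546 of chromosome 5, with scores of 15.4 and 10.4. Its neighbour CYP714A2 had its nearest site 2734 bp away. CYP88A3, an ent-kaurenoic acid oxidase gene of gibberellin synthesis, had no summit within 1500 bp. The brassinosteroid genes CYP90D1 (AT3G13730), with 2 replicate 1 summits of which the higher scored 6.95 inside the gene, and CYP72C1 (AT1G17060) had no site. At CYP72C1, which is known for inactivating brassinosteroids, summits at percentile 86.3 of replicate 1 and 69.9 of replicate 2 lay 307 bp apart, too far to be joined. CYP711A1 (AT2G26170, also MAX1), which acts in strigolactone synthesis, had its nearest summits at 6886 and 4288 bp.

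CYP83B1 (AT4G31500, also SUR2), which directs indole-3-acetaldoxime into indole glucosinolates and whose loss is known to raise auxin, had a site at 15273291 of chromosome 4, at a distance of 119 bp. Its scores were 4.79 in replicate 1, at percentile 9.98, and 9.41 in replicate 2, and AT4G31490 lay nearer to it, at 61 bp. Of the 9 glucosinolate genes 2 had a site, CYP83B1 and CYP81F3, and 5 had a replicate 1 summit, where 14.0% and 28.1% of all genes did. Replicate 1 summits alone lay at 1274 bp from CYP79A2, with a score of 14.9, at 1296 bp from CYP81F2, with a score of 13.8, and at 731 bp from CYP91A2, with a score of 6.13. CYP79F1, CYP79F2 and CYP83A1, of aliphatic glucosinolate synthesis, had no summit within 1500 bp. CYP79C1 (AT1G79370), whose family converts amino acids to aldoximes, had a site at 452 bp with scores of 12.2 and 5.21, which fell inside the neighbouring gene RGLG4. Of 6 genes of tryptophan-derived defence, namely CYP79B2, CYP79B3, CYP71A12, CYP71A13, CYP71B6 and CYP82C2, none had a site. The 1 with a summit, CYP79B3 (AT2G22330), had it in replicate 1 alone, with a score of 12.6 at 987 bp.

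The CYP81 family had the most genes with a site, and 4 of its 5 lay in a cluster on chromosome 4. CYP81F3 (AT4G37400), which modifies indole glucosinolates, had 2 sites. The first, 745 bp away at 17583247, scored 24.2 and 10.3, and the second, 9 bp inside the gene, scored 15.6 and 9.88. The replicate 1 summit of the second site lay outside the gene. A site at 17566827, with scores of 11.7 and 10.2, lay 12 bp inside CYP81D3 (AT4G37340) and 297 bp from CYP81D2 (AT4G37360). Its replicate 1 summit lay 45 bp outside CYP81D3. A weaker site at 17564496, with scores of 7.32 and 5.53, lay inside CYP81D4 (AT4G37330) and 329 bp from CYP81D3. These 3 CYP81D genes thus share 2 sites and do not count as separate observations of binding.

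The same cluster held summits that could not be joined. At CYP81D5 (AT4G37320) summits of 8.50 in replicate 1 and 5.50 in replicate 2 lay 253 bp apart. The highest replicate 1 score of the cluster, 46.6, stood between CYP81F3 and CYP81F4 (AT4G37410), 1602 bp from the latter and so outside its window. CYP81F4 had 2 replicate 2 summits, the higher of score 16.6 at 1280 bp, and none of replicate 1 within 1500 bp. CYP81D8 (AT4G37370) had no summit of either library. Outside the cluster, CYP81D11 (AT3G28740), a stress-induced gene, held a site 46 bp from its end, at score percentiles 39.9 and 33.6. CYP81G1 (AT5G67310) had summits of 42.1 and 24.1, the highest score percentile of any P450 gene without a site, but they lay 428 bp apart.

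**Figure D5:**
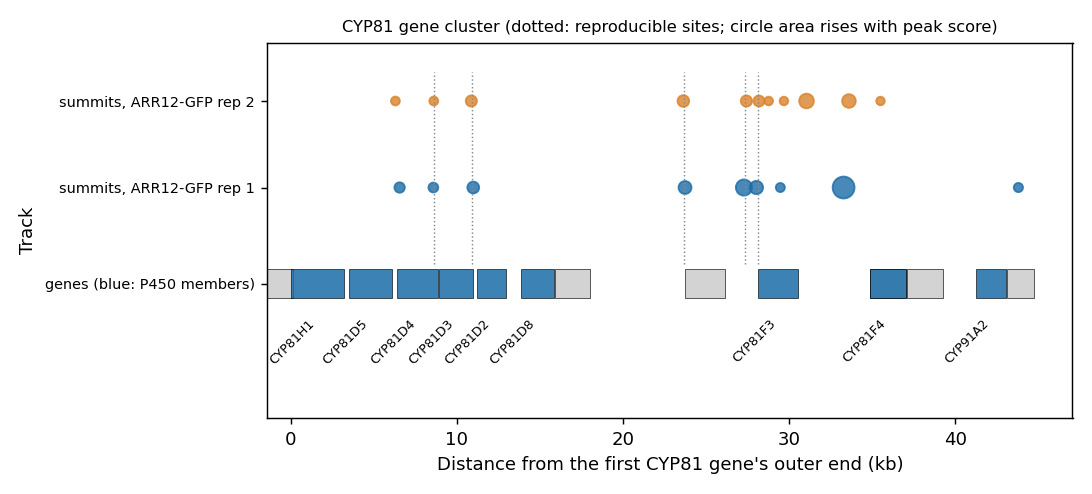
The CYP81 gene cluster on chromosome 4, drawn by distance in kb (horizontal axis) from the outer end of its first CYP81 gene, with P450 genes in blue, other protein-coding genes in grey, ARR12-GFP summits as circles whose area rises with the peak score, and reproducible sites as dotted lines. Of the 5 sites drawn, 2 lie among CYP81D4, CYP81D3 and CYP81D2 and 2 at CYP81F3, while the fifth lies at BRU6, a gene that is no P450.

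CYP705A genes, relatives of enzymes in the root triterpenoid clusters, had 4 of 22 with a site (18.2%, exact interval 5.19 to 40.3, against 14.0% of all genes) and 11 with a replicate 1 summit (50%, against 28.1%). CYP705A30 (AT3G20940) had 2 sites. The nearer, 175 bp away at 7339465 of chromosome 3, stood at score percentiles 94.3 and 85.8, and the farther, at 1261 bp, at 46.7 and 13.2. CYP705A8 (AT2G27000) and CYP705A9 (AT2G27010) share 1 site between them, at 11525401 of chromosome 2, with scores of 23.2 and 11.2. CYP705A13 (AT2G14100) had a weak site at 308 bp, with scores of 8.70 and 5.06. CYP702A3 (AT4G15310) of the CYP85 clan had a site at 753 bp, where the summits scored 21.7 and 14.8. At CYP708A3 (AT1G78490) the site lay at 334 bp and scored 10.2 and 9.90. Stronger summits inside CYP708A3, of 20.2 and 10.6, lay 284 bp apart and were not joined.

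In the CYP71 family 2 of 47 genes had a site (4.26%, against 14.0% of all genes) and 12 had a replicate 1 summit (25.5%, against 28.1%). CYP71A14 (AT5G24960) had it at 82 bp, at 8603403 of chromosome 5, with scores of 23.5 and 10.3. CYP71A28 (AT4G20235) had the P450 site with the lowest mean percentile, 22.4, at 626 bp with scores of 6.81 and 4.65. The CYP71B subfamily had 7 of 32 genes near a replicate 1 summit (21.9%, against 28.1% of all genes) and 0 near a replicate 2 summit, where 19.6% of all genes had one. The exact interval of 0 of 32 reaches 10.9%. It takes the genes as separate draws, while many CYP71B genes stand side by side on chromosome 3. Of the CYP706A genes 4 of 7 lay near a replicate 1 summit (57.1%, against 28.1% of all genes). Like the CYP71B genes, 0 lay near one of replicate 2, against 19.6% of all genes. Replicate 1 lists more summits, and the shares of all genes, 28.1% and 19.6%, differ with the lists. Whether a difference in depth between the libraries accounts for such counts was not tested. The strongest of these summits, of score 16.0, lay inside CYP706A4, and one of score 15.5 lay 288 bp from CYP71B23 and 359 bp from CYP71B3, which share it.

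In the phenylpropanoid pathway, CYP84A4 (AT5G04330), which is known from α-pyrone synthesis, had a site at 1214637 of chromosome 5, 198 bp from the gene, and its summits scored 31.2 and 14.3. A second site, 739 bp inside the gene, scored 2.66 in replicate 1, at percentile 0.202 of the list, and 7.59 in replicate 2. CYP98A3 (AT2G40890), the hydroxylase that makes caffeoyl intermediates of lignin, had no summit within 7498 bp, and its relatives CYP98A8 and CYP98A9 had none within 9114 bp. Of the other genes with a site, CYP715A1 (AT5G52400) had 2 sites. The first, 938 bp inside the gene at 21274817 of chromosome 5, scored 26.9 and 22.5, and the second, 1170 bp outside it, scored 10.2 and 9.40. CYP87A2 (AT1G12740) had a site at 543 bp, at 4341666 of chromosome 1, scoring 50.8 in replicate 1 and 12.3 in replicate 2. The site of CYP82F1 (AT2G25160), at 658 bp, scored 17.9 and 5.89.

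Several groups had no reproducible site, where 14.0% of all genes had one. None of the 12 CYP96A genes had a summit of either ARR12-GFP library. Their known member CYP96A15 is the midchain alkane hydroxylase of stem wax. The exact interval of 0 of 12 reaches 26.5%, where 28.1% of all genes had a replicate 1 summit and 19.6% a replicate 2 summit. That limit takes the genes as separate draws, while CYP96A9 to CYP96A12 stand side by side on chromosome 4. The subfamily is named because it had no summit, so the count is a description. Of the 6 CYP78A genes, which are known for promoting organ growth, 3 had a replicate 1 summit (50%, against 28.1% of all genes). A replicate 2 summit lay near 1 of them (16.7%, against 19.6%), and 0 had a site (exact interval up to 45.9%). CYP78A7 (AT5G09970) held the highest of these summits, with a replicate 1 score of 15.5. CYP78A6, CYP78A9 and CYP78A10 had the others, while CYP78A5 and CYP78A8 had none. None of the 5 sterol genes had a site, a count too small to be told apart from the 14.0% of all genes. CYP51G1 (AT1G11680), the obtusifoliol demethylase, had a replicate 2 summit of score 3.27 at 1004 bp, and of the sterol desaturase genes CYP710A1 had a replicate 1 summit of score 13.5 at 333 bp while CYP710A2, CYP710A3 and CYP710A4 had none within 1500 bp. CYP82C4, which acts in coumarin synthesis under iron deficiency, had its nearest summits at 2840 and 3146 bp. Over the 13 role groups, 10 of 57 P450 genes had a site (17.5%, against 14.0% of all genes).

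By chromosome, genes with a site numbered 5 of 45 on chromosome 1, 5 of 33 on chromosome 2, 3 of 59 on chromosome 3, 8 of 42 on chromosome 4 and 6 of 34 on chromosome 5. These shares ran from 5.08% on chromosome 3 to 19.0% on chromosome 4, where 14.3% and 13.7% of all genes of those chromosomes had a site. The exact interval of chromosome 3, 1.06 to 14.1%, ended just below the share of all its genes. That of chromosome 4, 8.60 to 34.1%, spanned it. Both are the extremes of the chromosomes, and the intervals take genes in tandem as separate draws. Some genes stood at the limits of the counting rule. Of the 27 genes with a site, 6 were never the nearest protein-coding gene to it, namely CYP705A9, CYP81D2, CYP94B2, CYP708A3, CYP79C1 and CYP83B1. Just outside the 1500 bp window, CYP89A7 (AT1G64930) had a site at 1509 bp, CYP51G1 one at 1729 bp and CYP76C3 one at 1849 bp, and just inside it the farthest gene counted was CYP707A3, at 985 bp. CYP97B3 (AT4G15110), of the carotenoid hydroxylase family, and CYP89A5 (AT1G64950) had summits of both libraries 274 bp and 1063 bp apart and so had no site. CYP97A3, also of carotenoid hydroxylation, had no summit within 9569 bp.

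Of the 15 P450 genes annotated under another name, 5 had a site (33.3%, exact 95% interval 11.8 to 61.6, against 14.0% of all genes). DWF4 (AT3G50660, CYP90B1), which catalyses the rate-limiting step of brassinosteroid synthesis, had 2 sites. The first, 932 bp inside the gene at 18814881 of chromosome 3, scored 42.1 and 16.4, and the second, 436 bp outside it, scored 41.0 and 20.1. AOS (AT5G42650), the allene oxide synthase of jasmonate synthesis, held a site with scores of 24.1 and 22.9. C4H (AT2G30490) and FAH1 (AT4G36220), hydroxylases of the lignin pathway, had 2 sites each. In C4H the inside site scored 10.6 and 4.61 and the one at 1476 bp scored 20.5 and 9.69. In FAH1 the inside site scored 17.8 and 6.74 and the one at 1354 bp scored 12.5 and 2.23. ROT3 (AT4G36380) had one at 1177 bp. With these genes added, 32 of 228 P450 genes (14.0%) had a site. With them, 3 of 7 genes of phenylpropanoid and flavonoid synthesis and 2 of 7 brassinosteroid genes had a site.

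Of 10 genes for partners of P450 enzymes, 1 had a site, where 14.0% of all genes did. None of the 3 NADPH-P450 reductase genes, which deliver electrons, had one. Of the 7 cytochrome b5 and scaffold genes, MSBP1 (AT5G52240), a membrane protein that organises P450 enzymes of lignin synthesis, had a site at 1002 bp with summits of 32.5 and 7.57. ATR2 (AT4G30210), a reductase gene, had summits of 7.05 and 5.07 that formed no reproducible site.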

How the data were processed

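The analysis started from 4 deposited summit lists, 1 per immunoprecipitated library. MACS2 2.1.0, Bowtie 1.1.1, FastQC 0.11.2, SAMtools and the build TAIR10 are named in the labels' tool fields, per the submitters' processing notes. The peak caller's settings, and how reads matching several similar genes were placed, are not stated. The deposited score is −log10 of either p or q (not stated which), with a lowest value of 2.00, and was used as the authors' own value to rank summits within a list. Peaks were called per library, as the peak names show. The design text calls the 2 libraries of a genotype independent biological replicates.

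Genes came from a RefSeq table of assembly TAIR10.1, used for names and distances. As a check of the build, 29.2% of replicate 1 summits fell inside protein-coding genes, and 57.9% did once all were moved by -2000 bp. A site was placed midway between the libraries' best summits. Percentiles are over all summits of a list. No sequence was used here, so the planned promoter motif counts were not made. No list test was made. Named are the P450 genes with a site, those near a control summit, those near both libraries without a site, the 10 with the highest percentile without a site, the CYP-named genes of the role groups, and partner genes with a site, beside some genes chosen after their values were seen. The genes, groups and rules were chosen with earlier results of these data known. Joining and counting were tested on simulated lists. Python 3.11.15, NumPy 2.4.6, pandas 2.3.3, SciPy 1.17.1 and matplotlib 3.10.9 were used.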

Additional observations from a re-analysis of the deposited data

How the results depend on the processing

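The number of P450 genes with a reproducible site stayed within 1.5 times the reported 27 under 12 of 14 alternatives, and the share of P450 genes lay below that of all genes in 8 of the 14 and above it in the other 6. Counting sites inside genes alone gave 11 genes, and 23 and 18 genes for the summits of ARR12-GFP replicates 1 and 2, since less sequence is searched. Summits at or above the median score gave 37 genes for replicate 1, from 71, with fewer summits by construction. Leaving out each library in turn gave 27 to 71 genes. The value without ARR12-GFP replicate 2 was 71 (33.3%, against 27.8% of all genes), and without ARR12-GFP replicate 1 it was 39, since the summits of the remaining library then replace the joined sites. Adding P450 genes under another name, chosen after seeing the data, gave 32. The difference of 54.5 genes between the groups ranged from 38.5 to 70.5 without each library in turn, and kept its direction under each alternative run. With same-numbered libraries as pairs (replicate block) it was 54.5 with p = 0.5 in an exact sign-flip permutation test, the smallest that 2 pairs allow. With 2 libraries per group and unknown read depth, genes without a site are not shown to be unbound.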
